A study of Mus musculus with 12 samples.

Results

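The interferon regulatory factor (IRF) genes were followed in mouse CD8+ T cells given an antibody to CD3, IFN-4a, or both. The members were the 8 genes Irf1, Irf2, Irf3, Irf4, Irf5, Irf7, Irf8 and Irf9, taken where a probe set of the array is annotated with exactly 1 gene symbol. This left 7 members with 8 probe sets, out of 22180 genes with 23521 such probe sets in the file. Irf8 has 2 of these probe sets. The only probe set that lists Irf5 also lists a neighbouring gene, Tnpo3, so Irf5 was not analysed here. The cells came from spleens of C57BL/6 mice, were enriched with an isolation kit that removes other cells, and were cultured for 6 h. The 4 groups had 3 arrays each: anti-CD3 with IFN-4a, anti-CD3 alone, PBS with IFN-4a, and PBS alone as mock treatment. Cells with anti-CD3 are called stimulated and cells with PBS resting. The labels number the replicates but do not say whether they came from separate mice or cultures, so the spread behind each p-value may be only technical.

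IRF proteins are transcription factors that share an amino-terminal DNA-binding domain and recognise related purine-rich DNA elements. In the type I interferon pathway, the receptor activates the kinases Jak1 and Tyk2, and Irf9 then acts with Stat2 to switch on interferon-stimulated genes. Irf3 and Irf7 drive the interferon genes themselves after infection is sensed, Irf1 and Irf2 act at overlapping sites as an activator and mainly a repressor, and Irf4 and Irf8 form a lymphoid and myeloid pair that binds DNA with partner proteins. In T cells Irf4 is known as a factor induced by antigen receptor signals in proportion to their strength.

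Values are log values taken as log2, centred for each probe set on its median over the 12 arrays. A value of 0 is therefore that median, levels cannot be compared between genes, and folds would be larger if the log were natural. Arrays of the same group correlated at 0.730 or more across genes and arrays of different groups at 0.535 or less. The decimal steps of the deposited values carry a trace of the level before centring, because a value of 8 or above has a coarser step than one below. Irf1, Irf2, Irf3, Irf7 and Irf9 had the coarse step on all 12 arrays, as had 18.0% of all probe sets. All 8 measured T cell and CD8 T cell markers had it too, against 0 of 9 B cell, 0 of 9 monocyte and macrophage, 0 of 5 CD4 T cell, 0 of 6 granulocyte, 2 of 9 dendritic cell, 1 of 6 NK cell and 1 of 5 plasma cell markers. The treatments registered in genes outside the family: Mx1, an antiviral GTPase gene, rose by 4.15 (log2) with IFN-4a in stimulated cells, and Nr4a1, an immediate early gene of T cell receptor signalling, rose by 3.44 with anti-CD3 alone. Changes are differences of group means with standard error (SE) from limma, and a gene is called where the p, adjusted by Benjamini-Hochberg over all 22180 genes, is under 0.05.

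Sorted by which treatment moved them, the 7 measured members fell into distinct patterns. Anti-CD3 alone raised 5 of 7 members (Irf1, Irf4, Irf7, Irf8, Irf9) and lowered none, where 31.5% of all genes were called, 13.6% higher and 17.9% lower. IFN-4a in resting cells raised 4 of 7 (Irf1, Irf2, Irf7, Irf9) and lowered none, where 12.4% of all genes were called, 4.19% higher and 8.22% lower. In bulk RNA fewer cells of a type and less RNA per cell cannot be told apart. In stimulated cells IFN-4a raised only Irf7 and Irf9 among the 7, where 3.43% of all genes were called, 1.99% higher and 1.43% lower. The median change of the members was 0.83 with anti-CD3 alone and 0.36 with IFN-4a in resting cells, where the medians of all genes were -0.04 and -0.01. Irf4 and Irf8 were driven by anti-CD3, Irf2 by IFN-4a, and Irf1, Irf7 and Irf9 by both, with Irf1 moved more by anti-CD3 and Irf7 and Irf9 more by IFN-4a. This sorting was kept in all 21 alternative settings for Irf1, Irf2, Irf3 and Irf9, in 20 for Irf7, in 18 for Irf4 and in 16 for Irf8. Irf7 counted as driven by IFN-4a alone under quantile normalization. Irf4 and Irf8 otherwise counted as moved by both treatments, more by anti-CD3, among them Irf8 when its probe set with the larger spread was used. Irf3 was called in none of the 7 comparisons.

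**Figure D1:**
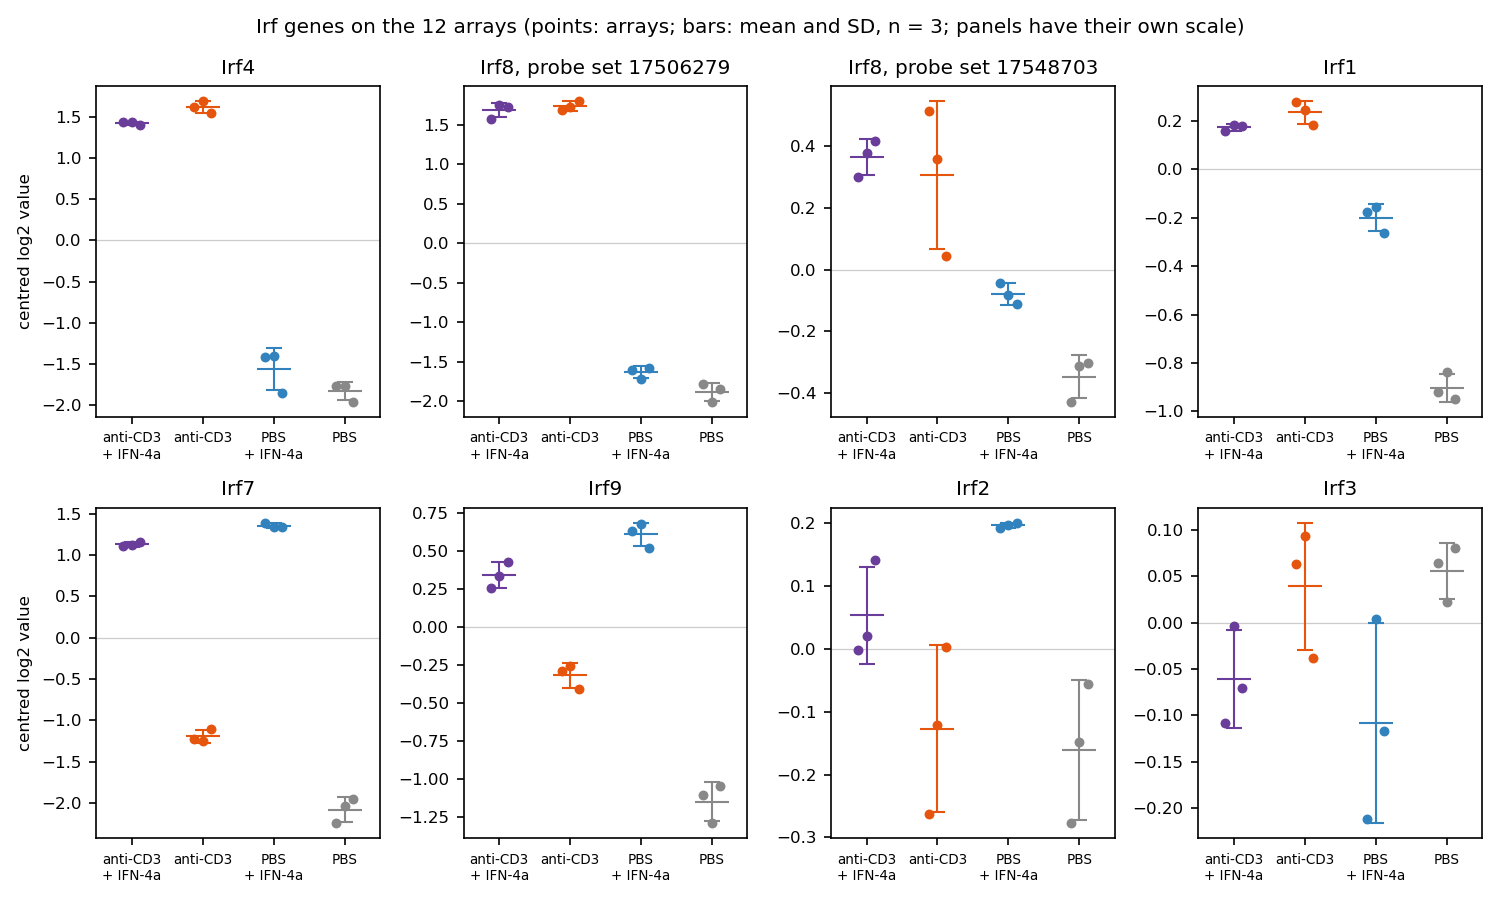
Centred log2 value (vertical axis) of each Irf probe set on every array, by group from left to right anti-CD3 with IFN-4a, anti-CD3, PBS with IFN-4a and PBS, with bars for the mean and SD of 3 arrays. Irf4 and both Irf8 probe sets are high in the anti-CD3 groups, Irf7 in the IFN-4a groups, and the Irf3 groups lie close together.

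The bases before the annotated start of transcription are shown for the members whose window held a match to one of 4 short motifs of pathways that the treatments engage. The windows are those of RefSeq on GRCm38.p6, 250 bases before to 50 after each start, and were found for all 7 measured members (10 windows, since Irf1, Irf8 and Irf9 have a pair of starts each). Both strands were searched. The core of the interferon-stimulated response element was taken as GAAA, any 2 bases, and GAAA again. The core of the gamma-activated site, bound by STAT proteins, was TTCNNNGAA. The NF-kappaB core was GGGA, any 4 bases, and CC, and the AP-1 core was TGANTCA. Capitals mark the matches.
Irf1, anti-CD3 and IFN-4a, chr11:53769914-53770013, plus strand: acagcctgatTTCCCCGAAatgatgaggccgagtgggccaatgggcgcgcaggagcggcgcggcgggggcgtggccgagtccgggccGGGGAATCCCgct
Irf8, anti-CD3, chr8:120736178-120736327, plus strand: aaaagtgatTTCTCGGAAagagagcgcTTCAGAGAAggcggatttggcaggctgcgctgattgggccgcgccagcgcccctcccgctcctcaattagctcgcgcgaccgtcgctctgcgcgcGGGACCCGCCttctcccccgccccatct
Irf4, anti-CD3, chr13:30749033-30749092, plus strand: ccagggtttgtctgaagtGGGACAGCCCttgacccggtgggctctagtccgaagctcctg
Irf2, IFN-4a, chr8:46739495-46739554, plus strand: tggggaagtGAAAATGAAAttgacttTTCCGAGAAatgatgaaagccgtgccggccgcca

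The Irf1 stretch held a gamma-activated site core that begins 90 bases before the start and an NF-kappaB core that begins 13 bases before it. The Irf8 stretch held 2 gamma-activated site cores and 1 NF-kappaB core, and its window had a further NF-kappaB match 11 bases after the start. The Irf4 stretch held 1 NF-kappaB core. Irf2 was the only member with a response element core, 241 bases before its start, and it had a gamma-activated site core 224 bases before it. Irf3, Irf7 and Irf9 had no match, which says only that these letters are not in these windows, and no member window held the AP-1 core. Of all 32851 windows, 3.44% held the response element core, 8.30% the gamma-activated site core, 20.7% the NF-kappaB core and 7.81% the AP-1 core. A match is a run of letters and was not tested as a binding site.

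Irf4 (Entrez gene 16364) separated the stimulated from the resting cells. Its values were 1.43, 1.43 and 1.40 with anti-CD3 and IFN-4a, 1.62, 1.69 and 1.54 with anti-CD3 alone, -1.42, -1.40 and -1.85 with PBS and IFN-4a, and -1.76, -1.76 and -1.96 with PBS. All 6 stimulated arrays lay above all 6 resting arrays. Anti-CD3 alone raised Irf4 10.9-fold (log2 3.44, SE 0.10, adjusted p = 1.82e-11, limma), the 20th highest change of 22180 genes, and with IFN-4a present 7.88-fold (log2 2.98, adjusted p = 6.99e-11). The third PBS array showed the step of a value below 8 before centring, while no stimulated array did.

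IFN-4a moved Irf4 little in either state. The difference was 0.27 in resting cells (95% interval 0.05 to 0.49, adjusted p = 0.106) and -0.19 in stimulated cells (-0.42 to 0.03, adjusted p = 0.411). The third PBS with IFN-4a array lay apart from the other 2 of its group, at -1.85. Without it the resting difference was 0.42 (adjusted p = 0.00262), and the IFN-4a change was then called smaller in stimulated than in resting cells (difference of the changes -0.61, adjusted p = 0.00741, against -0.47 and adjusted p = 0.212 with all arrays). Under quantile normalization the resting difference turned to -0.32. From high to low the order was anti-CD3, anti-CD3 with IFN-4a, PBS with IFN-4a and PBS, and only the step between the stimulated and the resting groups was told apart.

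Irf8 (Entrez gene 15900), the closest relative of Irf4 in the family, rose with anti-CD3 on both probe sets, but by very different amounts. Probe set 17506279 had 1.58, 1.75 and 1.72 with anti-CD3 and IFN-4a, 1.68, 1.73 and 1.80 with anti-CD3, -1.60, -1.72 and -1.58 with PBS and IFN-4a, and -1.78, -2.01 and -1.85 with PBS. Stimulated and resting arrays did not overlap. Its change with anti-CD3 alone was 12.2-fold (log2 3.61, SE 0.07, adjusted p = 5.45e-13), the 18th highest when it stood for the gene. Probe set 17548703, which the rule for genes with several probe sets selected, had 0.30, 0.38 and 0.41 with anti-CD3 and IFN-4a, 0.51, 0.36 and 0.04 with anti-CD3, -0.04, -0.08 and -0.11 with PBS and IFN-4a, and -0.43, -0.31 and -0.30 with PBS. It rose 1.57-fold with anti-CD3 alone (log2 0.65, SE 0.09, adjusted p = 7.72e-05), with the third anti-CD3 array lower than the other 2. With IFN-4a present the rise was 9.93-fold (log2 3.31, adjusted p = 1.21e-12) on probe set 17506279 and 1.36-fold (log2 0.44, adjusted p = 0.00222) on probe set 17548703.

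The signal steps of the Irf8 probe sets differed as well. Probe set 17548703 showed the step of a value below 8 on at least 6 of 12 arrays. Probe set 17506279 showed it on at least 3, all resting. On an array above the median this step can also come from a median below 8. For probe set 17548703 its split by treatment was therefore not read as a difference in signal. The change with IFN-4a in resting cells was alike in size on both. It was 0.25 (95% interval 0.09 to 0.40, adjusted p = 0.0377) on probe set 17506279 and 0.27 (0.07 to 0.47, adjusted p = 0.0831) on probe set 17548703, where the call was gained without the first (adjusted p = 0.0421) or the third anti-CD3 array (adjusted p = 0.0134). In stimulated cells the differences were -0.05 and 0.06, neither past the threshold. Across the 12 arrays probe set 17506279 correlated with Irf4 at r = 0.99 and with the other Irf8 probe set at r = 0.89, a description over arrays that share their treatments.

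Irf1 (Entrez gene 16362), an activator of antigen presentation and interferon-response genes, rose with each treatment. It had 0.16, 0.18 and 0.18 with anti-CD3 and IFN-4a, 0.28, 0.25 and 0.18 with anti-CD3, -0.18, -0.16 and -0.26 with PBS and IFN-4a, and -0.92, -0.84 and -0.95 with PBS. The PBS arrays were lowest, the PBS with IFN-4a arrays intermediate and the 6 stimulated arrays highest. Anti-CD3 alone raised it 2.20-fold (log2 1.14, SE 0.05, adjusted p = 1.68e-09) and IFN-4a in resting cells 1.63-fold (log2 0.70, SE 0.05, adjusted p = 8.68e-07). The direct comparison of both treatments put anti-CD3 above IFN-4a by 0.43 (adjusted p = 1.93e-05).

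In stimulated cells IFN-4a left Irf1 at -0.06 (95% interval -0.18 to 0.05, adjusted p = 0.661), so a further rise above 0.05 lay outside the interval. The IFN-4a change was smaller in stimulated than in resting cells by 0.77 (interaction -0.77, SE 0.08, adjusted p = 9.39e-05). The groups with anti-CD3, with and without IFN-4a, were not told apart.

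Irf7 (Entrez gene 54123), the factor that amplifies interferon gene expression, had the largest change with IFN-4a among the members. Its values were 1.10, 1.13 and 1.16 with anti-CD3 and IFN-4a, -1.22, -1.25 and -1.10 with anti-CD3, 1.39, 1.33 and 1.34 with PBS and IFN-4a, and -2.25, -2.03 and -1.96 with PBS. No group overlapped another. IFN-4a raised Irf7 10.8-fold in resting cells (log2 3.43, SE 0.07, adjusted p = 5.72e-13) and 4.99-fold in stimulated cells (log2 2.32, SE 0.07, adjusted p = 6.35e-11), the 25th and the 29th highest change of all genes.

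Anti-CD3 alone raised Irf7 1.85-fold (log2 0.89, SE 0.07, adjusted p = 2.92e-07), a change that turned to -0.11 (adjusted p = 0.147) under quantile normalization of the arrays. With IFN-4a present, anti-CD3 went with lower Irf7 (log2 -0.23, SE 0.07, adjusted p = 0.0291). That call was lost when any 1 of the 6 arrays compared was left out (adjusted p 0.0519 to 0.0940), while under quantile normalization the difference was -0.38 (adjusted p = 6.05e-05). The IFN-4a change was 1.11 smaller in stimulated cells (interaction -1.11, SE 0.10, adjusted p = 3.75e-05), which was -0.27 (adjusted p = 0.168) under quantile normalization.

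Irf9 (Entrez gene 16391), which binds DNA together with Stat2, had the same order of groups as Irf7. It had 0.26, 0.33 and 0.43 with anti-CD3 and IFN-4a, -0.29, -0.26 and -0.41 with anti-CD3, 0.63, 0.67 and 0.52 with PBS and IFN-4a, and -1.11, -1.29 and -1.05 with PBS. The groups did not overlap. IFN-4a raised it 3.38-fold in resting cells (log2 1.76, SE 0.08, adjusted p = 1.43e-09) and 1.58-fold in stimulated cells (log2 0.66, SE 0.08, adjusted p = 9.78e-05), and the difference of these changes was -1.10 (SE 0.11, adjusted p = 7.55e-05). Anti-CD3 alone raised it 1.78-fold (log2 0.83, adjusted p = 9.96e-07), which was 0.47 (adjusted p = 0.000351) under quantile normalization.

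With IFN-4a present, Irf9 was lower with anti-CD3 (log2 -0.27, adjusted p = 0.0155). The call was lost on leaving out replicate 1 of anti-CD3 with IFN-4a (adjusted p = 0.0713), or replicate 1 (0.0505) or 2 (0.0668) of PBS with IFN-4a. Under quantile normalization the difference was -0.40 (adjusted p = 0.00118). In this comparison 3 members were called higher (Irf1, Irf4, Irf8) and 2 lower (Irf7, Irf9), where 27.1% of all genes were called, 12.5% higher and 14.6% lower.

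Irf2 (Entrez gene 16363), known mainly as a repressor at interferon-response sites, moved least among the called members. It had 0.00, 0.02 and 0.14 with anti-CD3 and IFN-4a, -0.26, -0.12 and 0.00 with anti-CD3, 0.19, 0.20 and 0.20 with PBS and IFN-4a, and -0.28, -0.15 and -0.06 with PBS. The PBS with IFN-4a arrays lay above those of every other group, the anti-CD3 with IFN-4a arrays lay above the PBS arrays, and the anti-CD3 arrays overlapped those of PBS and touched those of anti-CD3 with IFN-4a. IFN-4a raised it 1.28-fold in resting cells (log2 0.36, SE 0.08, adjusted p = 0.00697), and anti-CD3 alone left it at 0.03 (95% interval -0.13 to 0.20, adjusted p = 0.804). In stimulated cells the IFN-4a difference was 0.18 (0.02 to 0.34, adjusted p = 0.269), and its difference from the resting change was not called (-0.18, adjusted p = 0.608).

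Irf3 (Entrez gene 54131), which is activated by phosphorylation rather than by new synthesis, varied within a narrow range. It had -0.11, 0.00 and -0.07 with anti-CD3 and IFN-4a, 0.06, 0.09 and -0.04 with anti-CD3, -0.21, 0.00 and -0.12 with PBS and IFN-4a, and 0.06, 0.02 and 0.08 with PBS. The means without IFN-4a were above those with it in both states. The arrays did not overlap in resting cells and overlapped in stimulated cells. The IFN-4a differences were -0.16 in resting cells (95% interval -0.30 to -0.03, adjusted p = 0.114) and -0.10 in stimulated cells (-0.24 to 0.04, adjusted p = 0.515). Anti-CD3 alone left it at -0.02 (-0.15 to 0.12). Anti-CD3 against IFN-4a stood at 0.15 (adjusted p = 0.101), a difference called on leaving out replicate 2 of PBS with IFN-4a (0.20, adjusted p = 0.0330).

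Set directly against each other, anti-CD3 alone exceeded IFN-4a alone for Irf1, Irf4 and Irf8 and fell below it for Irf2, Irf7 and Irf9, 3 members each way, where 30.4% of all genes were called, 14.3% higher and 16.1% lower. The size of these differences was 3.17 for Irf4 (SE 0.10, adjusted p = 2.56e-11) and 3.37 or 0.38 for the Irf8 probe sets. It was -2.55 for Irf7 (SE 0.07, adjusted p = 6.76e-12), -0.93 for Irf9 and -0.32 for Irf2 (SE 0.08, adjusted p = 0.00407). The plot of changes with each treatment alone places Irf4 and Irf8 along the anti-CD3 axis and Irf7 and Irf9 above the line of equal changes.

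**Figure D2:**
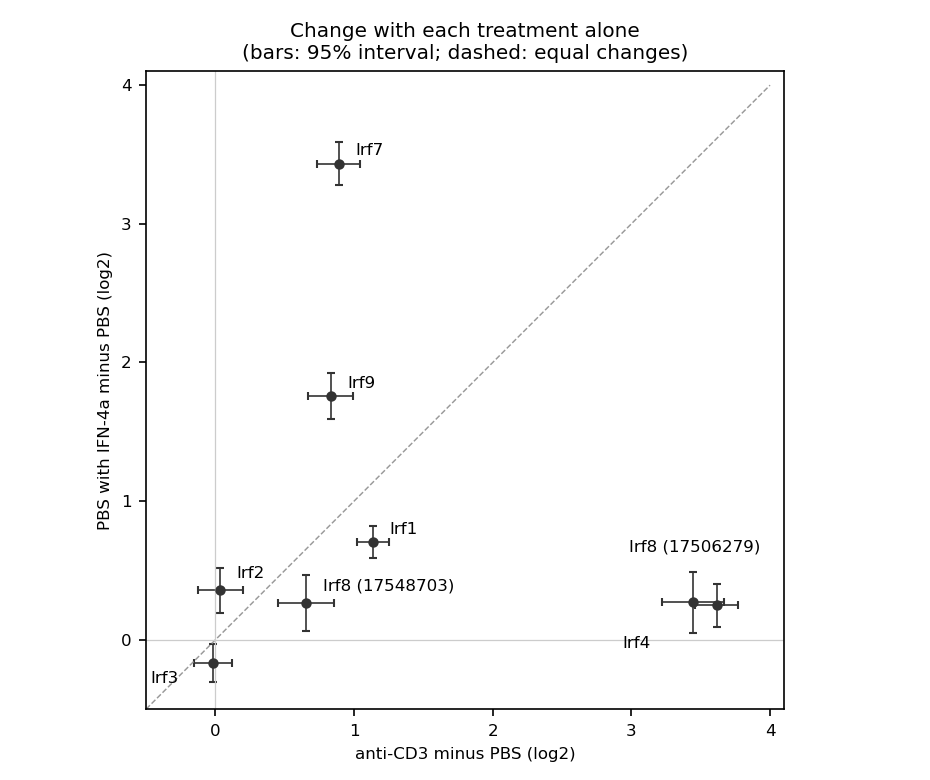
Change with anti-CD3 alone (horizontal, log2) and with IFN-4a in resting cells (vertical, log2) of each Irf probe set, as points with 95% intervals; the dashed line marks equal changes. Irf7 lies at 0.89 and 3.43 (its anti-CD3 change is -0.11 under quantile normalization), Irf4 at 3.44 and 0.27, and the Irf8 probe sets at 3.61 and 0.65 on the horizontal axis.

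Cells given both treatments were compared with PBS cells to see how the changes combined. Here 6 of 7 members were higher and none lower, where 32.7% of all genes were called, 13.8% higher and 18.9% lower, and Irf3 stood at -0.12 (adjusted p = 0.201). The combined change of Irf1 was 1.08, where the single changes sum to 1.84. It was 3.21 for Irf7, with a sum of 4.32, and 1.49 for Irf9, with a sum of 2.59. The shortfall is the interaction, called lower for 3 of 7 members (Irf1, Irf7, Irf9) and higher for none, where 0.911% of all genes were called, 0.631% lower and 0.28% higher, and the Irf7 call is the one lost under quantile normalization. The combined change was 3.25 for Irf4, with a sum of 3.72 and no called interaction. Irf2 was higher by 0.21 (adjusted p = 0.0422), a call lost without any 1 of 9 arrays (adjusted p up to 0.170, without the first PBS array), among them all 3 of the anti-CD3 with IFN-4a group.

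**Figure D3:**
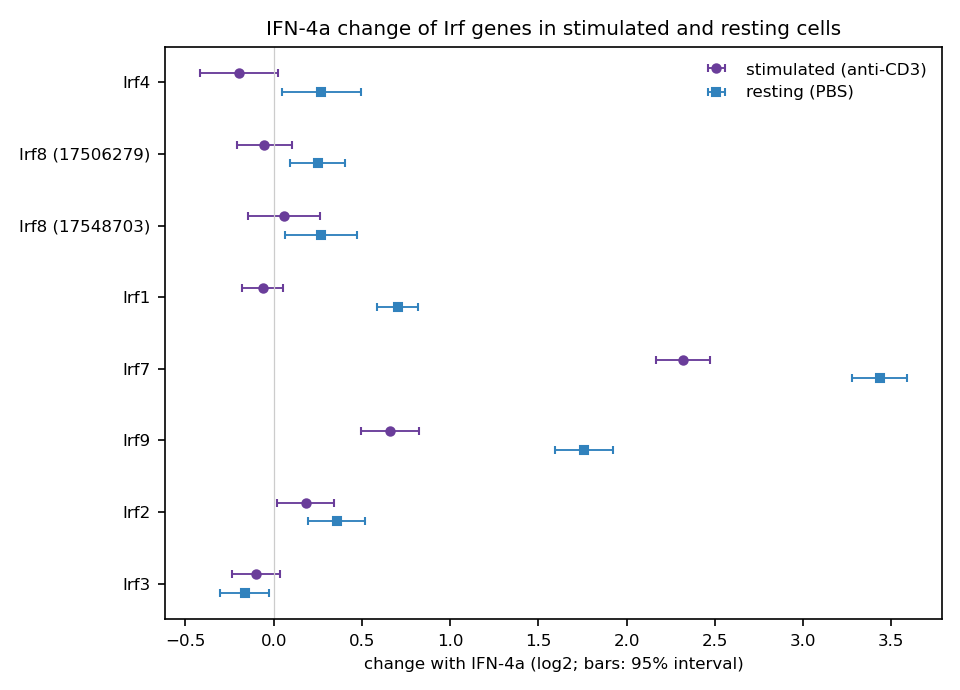
Change with IFN-4a (horizontal, log2, with 95% intervals) of each Irf probe set in stimulated cells (circles) and resting cells (squares). The circles lie left of the squares by 1.11 for Irf7, 1.10 for Irf9 and 0.77 for Irf1 (0.27 for Irf7 under quantile normalization), while the intervals of the other members overlap or nearly meet.

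The genes whose values followed each member most closely over the 12 arrays differed between the members. By Pearson's r, among 18778 genes left after passing over predicted genes, small RNAs, receptor segments and the members, Irf4 was followed by Xcl1, a chemokine gene, Aen, an exonuclease gene, and Nudc (r = 0.999, 0.998 and 0.998). Probe set 17506279 of Irf8 was followed by Egr2, Tcp1 and Tnf (all 0.998), and probe set 17548703 by Prrc2a, Nmt1 and Angptl4 (0.960, 0.960 and 0.956). Irf7 was followed by Xaf1, Rnf213 and Usp18 (all 0.999), and Irf9 by Gbp9, H2-T24 and Rtp4 (0.990, 0.989 and 0.987). Irf1 was nearest to Gbp8, a guanylate-binding protein gene, Cd274, which encodes PD-L1, and Stat3 (0.994, 0.993 and 0.987). Irf2 was nearest to Slc46a3, Pcgf5 and Ctss, the cathepsin S gene (0.942, 0.938 and 0.926). All arrays share the 4 treatments, so these values describe the order of the groups. Cd274, for example, rose by 3.27 with anti-CD3 alone and by 2.25 with IFN-4a in resting cells, and stood at 0.02 with IFN-4a in stimulated cells, the pattern of Irf1.

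Of 12 measured genes of type I interferon receptor signalling and its brakes, anti-CD3 alone raised 6 and lowered 4, where 13.6% of all genes were called higher and 17.9% lower. The lowered genes were the receptor chain genes Ifnar1 (log2 -0.64) and Ifnar2 (-0.28) and the kinase genes Jak1 (-0.60) and Tyk2 (-0.50). The raised genes were Stat2 (0.59), the partner of Irf9, and the genes of negative regulators Usp18 (1.14), Ptpn6 (1.15), Socs1 (0.73), Ptpn2 (0.50) and Ptpn11 (0.19), the last a phosphatase with both positive and negative roles. The list's median was 0.08, against -0.04 for all genes. IFN-4a raised 3 of 12 in resting cells (Usp18 by 4.76, Stat2 by 2.20, Socs1 by 0.53) and lowered Ptpn1 (-0.24), against 4.19% of all genes higher and 8.22% lower. With IFN-4a present, anti-CD3 left Stat2 at -0.09 and Usp18 at -0.15, neither past the threshold. In stimulated cells IFN-4a raised only Usp18 (3.47) and Stat2 (1.53) among the 12, where 1.99% of all genes were called higher and 1.43% lower. Both IFN-4a changes were smaller there than in resting cells (interactions -1.29 and -0.67, both called).

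Upstream of Irf3, Irf5 and Irf7, 14 adaptor, sensor and kinase genes were measured. IFN-4a raised 6 and lowered 1 in resting cells, where 12.4% of all genes were called in either direction, among them Ifih1, the gene of the RNA sensor MDA5 (4.29), Myd88 (0.66), Cgas (0.47), Tank (0.40) and Tbk1 (0.22), the kinase of Irf3, while the adaptor gene Mavs fell by 0.23. In stimulated cells IFN-4a raised 3 and lowered none (Ifih1 by 3.01, Myd88 by 0.42, Azi2 by 0.37). There 1.99% of all genes were called higher and 1.43% lower. Anti-CD3 alone raised 6 of 14 and lowered 2, where 31.5% of all genes were called: Ifih1 rose by 1.34, Tbkbp1 by 1.01 and Cgas by 0.64, and Ikbke, a kinase gene related to Tbk1, fell by 0.68. The list's median was 0.14 with IFN-4a in resting cells, against -0.01 for all genes.

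Of 16 measured genes of DNA-binding partners and cofactors, anti-CD3 alone raised 3 and lowered 4, near the shares over all genes (13.6% higher, 17.9% lower). The list's median was -0.02, against -0.04 for all genes. With IFN-4a in resting cells 1 rose and 1 fell, where 12.4% of all genes were called. Under anti-CD3 alone Jun rose by 1.37, Ikzf1 by 0.35 and Ikzf3 by 0.35. In the same comparison the coactivator genes Crebbp and Ep300 fell by 0.37 and 0.45, and Ets1 by 0.60. Batf, which binds DNA with Irf4 and Jun proteins, stood at -0.05 and Batf3 at -0.02, neither past the threshold. Irf2bpl, named for the Irf2-binding family, fell by 0.68 with anti-CD3 alone and by 0.34 with IFN-4a in resting cells. Jun was the only gene of the list raised by IFN-4a in resting cells and stood at -0.04 in stimulated cells, and this difference was called (interaction -1.04). No gene of the list was called with IFN-4a in stimulated cells.

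**Figure D4:**
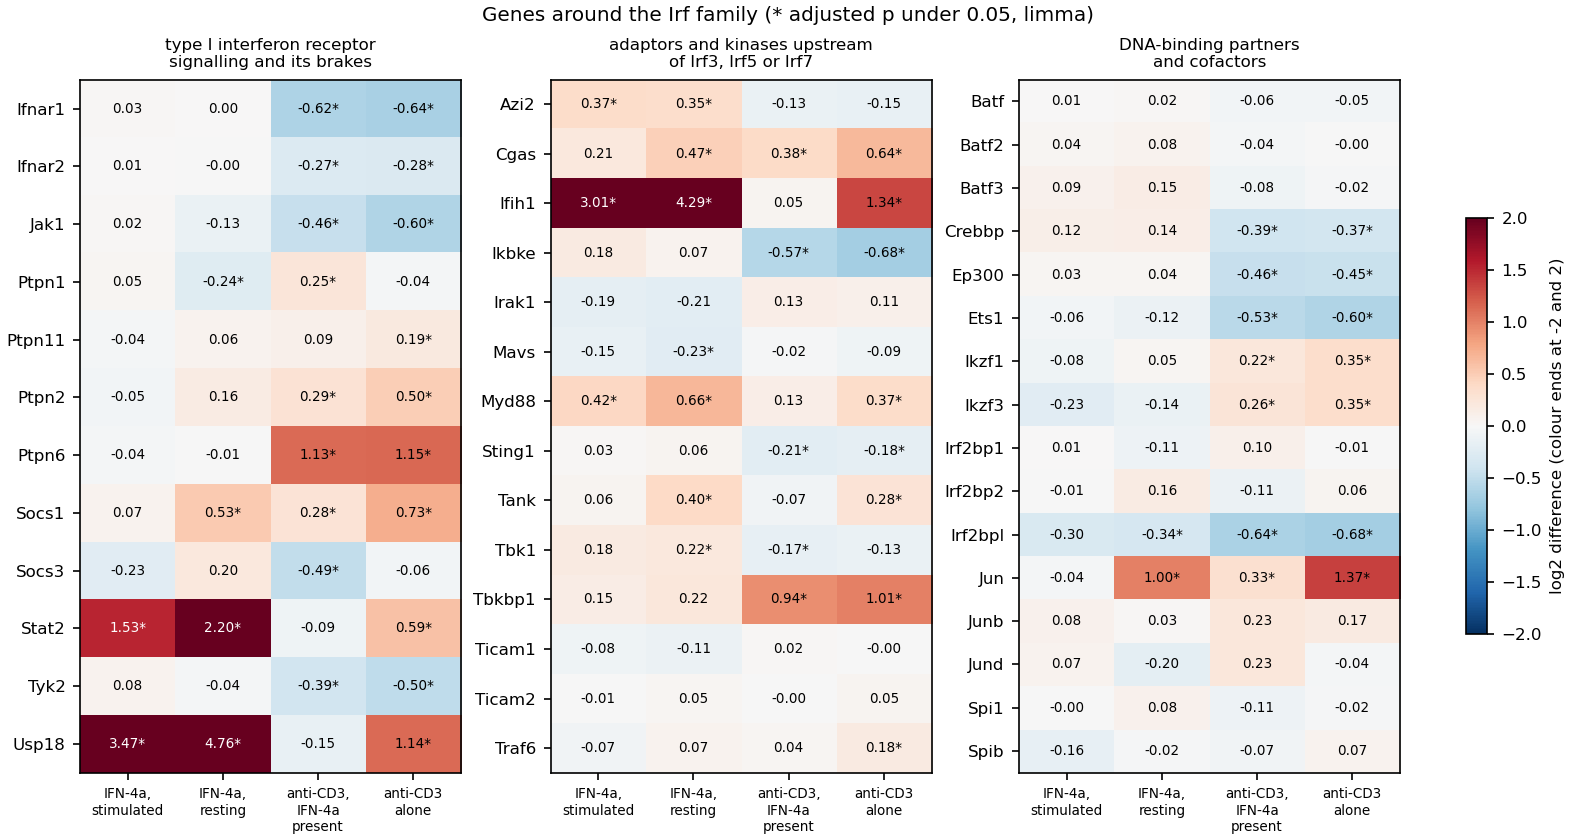
Change (log2, printed in each cell and shown as colour) of genes around the Irf family in 4 comparisons, from left to right IFN-4a in stimulated and resting cells, then anti-CD3 with IFN-4a present and alone; stars mark adjusted p under 0.05. Ifnar1, Ifnar2, Jak1 and Tyk2 are lower with anti-CD3 in both columns, and Stat2, Usp18 and Ifih1 are higher with IFN-4a in both states.

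Known targets were described beside their factors. Of 11 measured targets of Irf1, IFN-4a raised 7 in resting cells and 5 in stimulated cells, and anti-CD3 alone raised 7, with none lower in any of the 3. The shares of all genes called higher were 4.19%, 1.99% and 13.6% in these comparisons. The transactivator gene Nlrc5 rose by 1.54 with IFN-4a in resting cells, by 0.53 in stimulated cells and by 1.08 with anti-CD3 alone. Tap1, of the peptide transporter, rose by 0.63, 0.27 and 0.24 in the same comparisons. Cxcl10 had the largest change of the list in each (5.24, 2.09 and 3.39). Of 10 measured targets of Irf4, anti-CD3 alone raised 5 (Myc by 2.75, Hk2 by 2.37, Gzmb by 2.37, Tbx21 by 2.08, Bcl6 by 1.40). It lowered Ctla4 (-0.79), while Prdm1 stood at -0.08. In that comparison 13.6% of all genes were called higher and 17.9% lower. IFN-4a raised 3 of these 10 targets in resting cells and 2 in stimulated cells, and lowered none. The list's largest changes were 1.33 and 2.08, where 4.19% and 1.99% of all genes were called higher. Irf4 itself was not called with IFN-4a in either state. The lists' medians with anti-CD3 alone were 0.24 for the Irf1 targets and 0.72 for the Irf4 targets, against -0.04 for all genes. With IFN-4a in resting cells they were 0.66 and 0.05, against -0.01. Set directly against IFN-4a alone, anti-CD3 alone had none of 11 Irf1 targets higher and 6 lower, while Irf1 itself was higher by 0.43. Of the 10 Irf4 targets 5 were higher and 1 lower there. In this comparison 14.3% of all genes were called higher and 16.1% lower. Whether the factors moved these targets was not tested.

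Changes of the interferon genes, which Irf3 and Irf7 control, were small in size. Of 16 measured, anti-CD3 alone raised only Ifna7 (0.64), where 13.6% of all genes were called higher. IFN-4a in resting cells raised 3 of 16 (Ifna7, Ifna6 and Ifna12, by 0.32 to 0.37), where 4.19% of all genes were called higher. Ifnb1 stood at 0.02 and 0.04 in these comparisons. None of the 16 was called with IFN-4a in stimulated cells, where 3.43% of all genes were called. Probe sets of the near-identical Ifna genes may cross-hybridise.

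Irf4 and Irf8 are also expressed in B cells, dendritic cells and macrophages, so markers of these cells were set beside their rise with anti-CD3 alone. In that comparison 13.6% of all genes were called higher and 17.9% lower, the shares to set beside each marker list below. Of 9 measured B cell markers none rose and Cd79b fell (-0.69). Their mean lay between -0.11 and -0.05 on the anti-CD3 arrays, against 0.01 to 0.09 on the PBS arrays. Of 9 monocyte and macrophage markers none rose and Ccr2 fell (-0.57), with means between -0.15 and 0.00 on the anti-CD3 arrays, against 0.01 to 0.14 on the PBS arrays. Of 9 dendritic cell markers 3 rose (Bst2 by 1.41, Itgax by 0.56, H2-Aa by 0.35) and Cd209a fell (-1.01), with means between -0.13 and -0.03, against -0.32 to -0.23. Bst2 is itself an interferon-stimulated gene. Of 5 plasma cell markers Xbp1 rose by 0.72, of 6 NK cell markers Nkg7 by 0.93, and of 5 CD4 T cell markers Cd40lg by 1.04, while Ctla4 fell by 0.79. Of 6 granulocyte markers Elane fell by 0.24. Of the 8 T cell markers Cd5 rose by 1.18, and Thy1, Cd3d, Cd8b1 and Cd3g fell by 0.26 to 1.19. The part of other cells in the rise of Irf4 and Irf8 was not tested.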

How the data were processed

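RNA of 12 samples was measured on single-channel arrays after biotin labelling with a WT Plus kit, per the labels' protocols. The deposited values were taken as log2 and are centred per probe set on the median of all 12 arrays. The sources used here do not name the software, normalization, summarization or log base. Array medians lay between -0.02 and 0.02. Precision is limited by the number of arrays. Of 33793 probe sets, 23521 had 1 symbol, 1814 several and 8458 none. For genes with several probe sets the one with the highest mean was used, which on centred values does not rank signal; this chose probe set 17548703 for Irf8, so both are given, the other from a fit that used the probe set with the largest spread. Limma 3.58.1 in R 4.3.3 fitted 1 mean per group over all 12 arrays, with 7 contrasts (6 between pairs of groups and the interaction), 8 residual and 5.09 prior degrees of freedom. The script was tested on simulated data.

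A member was driven by a treatment if called with it alone and called in the direct comparison of both treatments on that side; by both if called with each alone. Named genes were all members, the 3 genes most correlated with each called member, and list genes with the largest changes or against their list; other list genes and markers were named after their values were seen. Of the listed genes, those without a probe set of 1 symbol, such as Traf3 and Tcf7, were not analysed here. The members and lists were chosen with earlier results of these data known. Alternatives were quantile normalization, subtracted array medians, other rules for several probe sets, array weights, a replicate block, a robust prior, only the groups compared, all probe sets tested, and each array left out.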

Additional observations from a re-analysis of the deposited data

Results flagged for a closer look

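The change with IFN-4a differed between stimulated and resting cells for 3 members by the interaction test of limma. Taken as the stimulated change less the resting change, the difference was -0.77 for Irf1 (adjusted p = 9.39e-05), -1.11 for Irf7 (adjusted p = 3.75e-05) and -1.10 for Irf9 (adjusted p = 7.55e-05). Under quantile normalization the Irf7 difference was -0.27 and no longer called (adjusted p = 0.168). Those of Irf1 (-0.56, adjusted p = 0.00226) and Irf9 (-0.87, adjusted p = 0.00219) were still called. Groups of 3 arrays are too small for a test of single outlying arrays.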

How the results depend on the processing

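Of 31 called differences of the members, 26 kept their direction and call under all alternatives run (21 for a comparison of 2 groups, 20 for the interaction, for which a fit of only the groups compared could not be made). The one that reversed was Irf7 with anti-CD3 alone, -0.11 under quantile normalization, and the cause was not tested. Quantile normalization was run on the centred values, so all arrays were given the same distribution of deviations from the probe set medians. The number of members called was 3 to 5 for anti-CD3 with IFN-4a present when arrays were left out in turn. It was 5 for anti-CD3 alone and 2 for IFN-4a in stimulated cells under each omission, and 4 to 5 for IFN-4a in resting cells, 5 to 6 for both against none, 6 to 7 for anti-CD3 against IFN-4a and 3 to 4 for the interaction. Irf2 in cells with both treatments against none also lost its call under quantile normalization (0.22, adjusted p = 0.0598), when the fit held just those groups (adjusted p = 0.0596) and with all probe sets tested (adjusted p = 0.0549).

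Irf4 with IFN-4a in resting cells was called with array weights (0.32, adjusted p = 0.0473) and with the replicate block (0.27, adjusted p = 0.0422), which changed no other call of a member. Arrays of the same number were not taken as pairs in the main fit. Their deviations from the group means correlated at -0.08 to 0.27, over 0.1 in 6 of 18 pairs. Between arrays of different groups and different numbers the range was -0.24 to 0.18. Whether arrays of the same number share an effect was not tested. Irf8 with IFN-4a in resting cells was called with the mean of its probe sets (0.26, adjusted p = 0.0133) or when the fit held just those groups (0.27, adjusted p = 0.0263). Irf3 in anti-CD3 against IFN-4a was called under quantile normalization (0.19, adjusted p = 0.0407) and array weights (0.18, adjusted p = 0.0292). The genes called over the whole array moved by over 1.5 times for IFN-4a in stimulated cells, 1351 with array weights and 484 on leaving out replicate 2 of anti-CD3 or replicate 3 of anti-CD3 with IFN-4a, and 503 on leaving out replicate 3 of anti-CD3, against 760. They also moved for IFN-4a in resting cells, 1721 on leaving out replicate 2 of PBS with IFN-4a against 2753, and for the interaction, 118 under quantile normalization against 202. Signal over background could not be read on centred values.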
